A study of Mus musculus with 24 samples.

Results

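Axon guidance ligands and receptors were examined in mouse primary cortical neurons. They were the protein-coding genes whose symbols begin with the names of the semaphorins of classes 3 to 7, plexins, neuropilins, Eph receptors, ephrins, Slits, Robos, netrins, Unc5 receptors or Dcc. The rule took 70 of 45792 genes in the count table, 36 of them ligands (20 semaphorins, 8 ephrins, 5 netrins and 3 Slits) and 34 receptors (14 Eph receptors, 9 plexins, 5 netrin receptors, 4 Robos and 2 neuropilins). The rule uses symbols and no measured value, and it was set with earlier results of these data known. A filter on low counts left 66 members for testing. Ntn5, Plxnb3, Robo4 and Sema3g had 7, 31, 34 and 106 counts over all 24 libraries and were not tested.

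The neurons came from cortex of E16.5 mouse embryos and were kept in culture for 12 days. Cultures were WT or carried the allele labelled H2BE-KO/mCherry-KI (KO below), in which the gene for the histone variant H2BE is knocked out. Each genotype was left untreated (control) or was given BDNF, a neurotrophin that acts through the receptor TrkB, for 30 min or 24 h before polyadenylated RNA was sequenced. Each of the 6 groups held 4 libraries, described as biological replicates. Within a genotype, libraries with 1 replicate number share a code in their descriptions, and each code was read here as 1 culture, which the labels do not state. Strain, sex and any pooling of embryos were not given in the sources used here.

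Axon guidance cues are secreted or membrane-bound proteins that attract or repel growth cones, and many of them later shape dendrites and synapses. Semaphorins signal through plexins, the secreted class 3 members mostly with a neuropilin as the ligand-binding co-receptor, and ephrins bind Eph receptor tyrosine kinases at contacts between cells and can signal in both directions. Slits repel axons through Robo receptors, and netrins attract through Dcc or repel through Unc5 receptors, while the netrin-G proteins are membrane-anchored synaptic adhesion molecules that do not use Dcc.

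Libraries held 19780486 to 62135270 counts, and levels are given as CPM, counts scaled to a common library total. Neuronal markers were abundant, at 6700 to 7890 CPM summed over 6 genes in the WT libraries, while microglial and endothelial markers reached at most 4.97 and 4.02 CPM summed over 6 genes each, and P2ry12 and Cldn5 had no count in WT controls. The gene targeted in the KO, Hist2h2be, was counted at 3.15 to 5.83 CPM in WT and at 50.0 to 63.1 CPM in 11 KO libraries, and the counts cover the whole gene and so do not check the deletion. The library labelled KO 24 h replicate 4 stood at 21.2 CPM and was the only library with high counts of both Xist and Ddx3y, the lower of the pair at 66.3 CPM against at most 8.19 CPM in the other 23. KO replicates 3 and 4 also had the largest shares of mitochondrial counts, 7.52% to 21.7% against 4.18% to 6.40% in the other libraries. Whether the library labelled KO 24 h replicate 4 holds RNA of more than 1 culture was not tested, and KO 24 h values of members are given with and without it.

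Levels are first described within untreated WT neurons, as CPM per kilobase of exon, the scale on which genes can be compared with each other. Efnb3, a transmembrane ephrin, had the highest level of all members at 92.04 ± 13.2 (SD, n = 4). It was followed by Plxnd1, the receptor of Sema3e, at 41.1 ± 3.53, by Plxna1, a co-receptor partner of neuropilins, at 33.4 ± 2.77, and by the membrane-anchored semaphorin Sema7a at 30.7 ± 11.2. Sema7a did not differ beyond its spread from Plxna1 above it or from Epha5 below it. The most abundant Eph receptor was Epha5 at 24.5 ± 2.11, the most abundant Slit was Slit1 at 23.4 ± 3.31 and the most abundant Robo was Robo2 at 21.8 ± 2.14. Neighbours in this order from Epha5 to Robo2 lay within each other's spread. In the remaining families the leading members were Ntng2 at 15.2 ± 1.84, Nrp2 at 13.3 ± 4.03 and Unc5a at 12.5 ± 1.53. The spread of Unc5a overlapped with that of Unc5d, at 9.62 ± 3.04. Dcc, the attractive netrin receptor, stood at 3.89 ± 0.841.

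**Figure D1:**
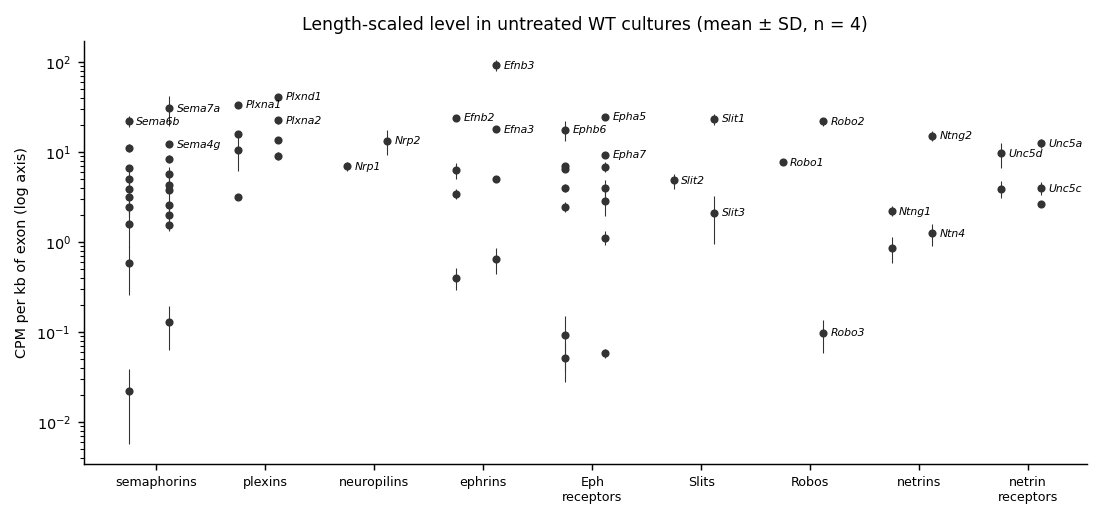
Level of each tested member, and of Sema3g, which was not tested, in untreated WT neurons, as CPM per kilobase of exon on a log axis, by family. Points are means of 4 libraries, bars are SD (drawn only where they stay above 0), and the highest members of each family are labelled. Efnb3 lies above all others, and the 2 neuropilins lie closest together.

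After 30 min of BDNF no member passed the test in either genotype. The test was the quasi-likelihood F-test of edgeR, its p adjusted by Benjamini-Hochberg over all 16777 genes tested, with a threshold of 0.05, and 0.37% of all genes passed in WT and 0.125% in KO. At an unadjusted p under 0.05 there were 0 members in WT and 1 in KO, Plxnb1, at a log2 fold change of -0.23 ± 0.0928. The share of all genes under that unadjusted threshold is not given here. Each log2 fold change is printed here and below with its SE after the sign ±. DESeq2 also called 0 in each genotype. The median log2 fold change of the 66 members was -0.02 in WT and -0.01 in KO, beside 0.002 and -0.005 over all genes.

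At 24 h of BDNF in WT neurons 31 of 66 members passed, 8 higher and 23 lower, which is 47.0% of the members beside 18.7% of all genes tested (9.55% higher and 9.13% lower). The members' median log2 fold change was -0.37, beside -0.01 over all genes. By family, 1 of 19 tested semaphorins rose and 6 fell, 1 of 8 plexins rose and 5 fell, 1 of 8 ephrins rose and 3 fell, and 2 of 14 Eph receptors rose and 5 fell. Of 3 Slits 1 rose, of 3 Robos 1 rose and 1 fell, of 4 netrins 2 fell, of 5 netrin receptors 1 rose and 1 fell, and neither neuropilin passed. In KO neurons 16 members passed, 8 higher and 8 lower, which is 24.2% beside 5.61% of all genes (2.91% higher and 2.7% lower), with a median of -0.20 beside -0.03. Without the library labelled KO 24 h replicate 4 the KO count was 14, 6 higher and 8 lower, beside 5.78% of all genes: Ntng1, Sema5a, Ephb2, Nrp1 and Sema4g no longer passed, and Epha7, Sema3f and Efna2 then did. In fits that left out any 1 of the 24 libraries in turn, 23 of the 31 WT calls and 7 of the 16 KO calls held every time. The WT calls lost at least once were Efna2, Efna3, Epha4, Ntn4, Plxnc1, Sema3f, Sema4f and Unc5a, with an adjusted p of up to 0.165, and the KO calls were Epha2, Ephb1, Ephb2, Nrp1, Ntng1, Plxnd1, Sema3e, Sema4g and Sema5a, with one of up to 0.203. With the culture as a block, the KO count was 35, 13 higher and 22 lower, beside 16.9% of all genes (8.3% higher and 8.59% lower). The WT count was then 45, 11 higher and 34 lower, beside 31.6% of all genes. Leaving the library labelled KO 24 h replicate 4 out of the blocked fit gave 40 in KO, 13 higher and 27 lower, beside 19.5%. In bulk RNA, fewer cells of a type and less RNA per cell cannot be told apart. Among the cell type markers, 3 of 6 neuronal genes fell at 24 h in WT (Rbfox3, Tubb3 and Stmn2), 1 of 6 glutamatergic genes (Cux2) fell in each genotype and, in KO without the library labelled KO 24 h replicate 4, Neurod6 as well, 0 of 6 GABAergic and 0 of 8 astrocyte genes passed in either, and Mbp rose in WT. The summed glutamatergic markers went from 792 to 1090 CPM in WT controls to 513 to 752 CPM at 24 h, and the summed GABAergic markers from 673 to 1570 CPM to 789 to 2050 CPM. The part of these shifts in the members' results was not tested.

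**Figure D2:**
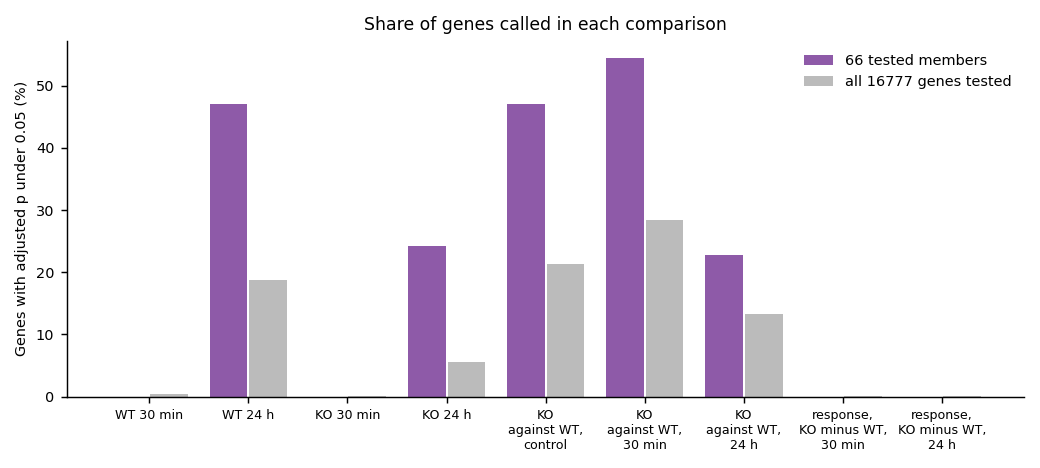
Share of genes with an adjusted p under 0.05 (%) in each of the 9 comparisons, for the 66 tested members (purple bars) and all 16777 genes tested (grey bars). No member passed at 30 min or in the test of the difference in response, and at 24 h 47.0% of members passed in WT and 24.2% in KO.

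Among the receptors that rose, Epha2, an Eph receptor that binds A-class ephrins and is better known from epithelia and tumours than from neurons, changed most. In WT its level was 0.240, 0.396, 0.812 and 0.282 CPM in the control libraries, 0.310, 0.724, 0.740 and 0.882 CPM at 30 min and 2.28, 4.49, 4.91 and 2.37 CPM at 24 h. KO libraries read 0.660, 0.159, 0.951 and 0.674 CPM in controls, 0.821, 0.643, 0 and 1.72 CPM at 30 min and 3.23, 3.97, 3.19 and 3.03 CPM at 24 h. Every 24 h library lay above every control library of its genotype, and none of the untreated libraries reached 1 CPM. The log2 fold change was 3.02 ± 0.611 (adjusted p = 0.00109) in WT and 2.50 ± 0.599 (adjusted p = 0.0146) in KO, and 2.55 ± 0.634 (adjusted p = 0.0176) without the library labelled KO 24 h replicate 4. Leaving out KO control replicate 2 took the KO call to an adjusted p of 0.0518.

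The 250 bases before the transcription start of the members called at 24 h in both genotypes were read from RefSeq promoter windows (GRCm38.p6), where 60 of 70 members have an entry and Plxna4 has none. They were searched on both strands for 5 motifs bound by factors of activity-dependent transcription or, for the E-box, by many factors: the cAMP response element TGACGTCA, the AP-1 motif TGANTCA, the EGR motif GCGNGGGCG, the ETS motif CCGGAAG and the E-box CACGTG. Of 12 windows 4 held a match, and these are shown, in 5′ to 3′ order on the gene's strand with the match in capitals, because 2 belong to genes that rose (Epha2 and Efna5) and 2 to genes that fell (Sema4g and Plxnb1). The windows are chr4:141300971-141301220 on the plus strand for Epha2, chr17:62881318-62881567 on the minus strand for Efna5, chr19:44989094-44989343 on the plus strand for Sema4g and chr9:109095186-109095435 on the plus strand for Plxnb1.
Epha2: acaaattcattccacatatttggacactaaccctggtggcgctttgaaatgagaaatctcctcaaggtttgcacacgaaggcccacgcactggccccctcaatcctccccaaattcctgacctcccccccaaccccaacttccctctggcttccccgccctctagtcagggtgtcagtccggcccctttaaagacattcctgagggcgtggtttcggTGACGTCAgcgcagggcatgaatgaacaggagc
Efna5: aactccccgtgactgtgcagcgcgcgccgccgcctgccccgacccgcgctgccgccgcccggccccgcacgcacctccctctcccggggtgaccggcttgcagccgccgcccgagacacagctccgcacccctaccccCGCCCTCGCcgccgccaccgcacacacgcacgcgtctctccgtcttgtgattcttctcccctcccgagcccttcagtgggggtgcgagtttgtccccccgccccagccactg
Sema4g: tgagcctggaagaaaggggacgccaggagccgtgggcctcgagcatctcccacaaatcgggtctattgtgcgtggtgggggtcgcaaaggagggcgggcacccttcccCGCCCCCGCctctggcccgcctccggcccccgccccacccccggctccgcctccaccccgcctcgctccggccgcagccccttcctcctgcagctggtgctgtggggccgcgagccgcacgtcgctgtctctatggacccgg
Plxnb1: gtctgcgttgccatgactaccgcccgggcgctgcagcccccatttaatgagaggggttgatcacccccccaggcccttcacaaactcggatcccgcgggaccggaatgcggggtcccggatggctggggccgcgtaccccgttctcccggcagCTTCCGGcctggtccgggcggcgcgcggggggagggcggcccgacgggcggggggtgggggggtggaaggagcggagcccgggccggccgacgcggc
The Epha2 window holds a cAMP response element that begins 33 bases before the start, and it was the only 1 of 76 member windows (1.32%) with that element, which 1.55% of all 32851 windows of this length hold. The EGR motif lies 112 bases before the start of Efna5 and 142 bases before that of Sema4g, and the ETS motif lies 97 bases before the start of Plxnb1, all 3 on the opposite strand. These starts are those of RefSeq. In the GENCODE annotation Sema4g begins further upstream, at chr19:44989101, so its motif lies inside the annotated gene. The windows of Epha10, Robo1 and Ntng2, which held no match, also lie inside the annotated genes. EGR motifs were present in 12 of 76 member windows (15.8%) and in 4.70% of all windows, while the median GC content was 64.2% in member windows and 52.4% in all. AP-1 motifs were in 3.95% of member windows and 6.75% of all, ETS motifs in 2.63% and 6.91%, and E-boxes in 5.26% and 6.02%.

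Sema3e, a secreted semaphorin that binds Plxnd1 directly without needing a neuropilin, rose while its receptor fell. Sema3e read 27.4, 36.2, 59.5 and 18.6 CPM in WT controls, 22.6, 31.2, 64.5 and 20.1 CPM at 30 min and 67.6, 95.5, 143 and 77.1 CPM at 24 h. In KO it read 56.6, 52.6, 54.5 and 33.02 CPM, 60.3, 53.8, 48.7 and 91.4 CPM and 159, 156, 140.4 and 93.5 CPM in the same order. The cultures differed widely, WT replicate 3 being highest in each WT group, but the 24 h libraries did not overlap with the controls in either genotype. The log2 fold change was 1.44 ± 0.349 (adjusted p = 0.00514) in WT and 1.48 ± 0.349 (adjusted p = 0.0136) in KO. Without KO control replicate 4 the KO call went to an adjusted p of 0.0524, and without the library labelled KO 24 h replicate 4 it was 1.62 ± 0.363 (adjusted p = 0.00844).

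Plxnd1 read 294, 293, 336 and 276 CPM in WT controls, 238, 301, 300.5 and 279 CPM at 30 min and 164, 178, 175 and 161 CPM at 24 h. Its KO libraries read 176, 178, 144 and 151 CPM, 161, 170.0, 134 and 139 CPM and 106, 98.5, 96.9 and 146 CPM. Untreated KO libraries lay in and just below the range that WT libraries had after 24 h of BDNF, and the KO level fell further at 24 h, where the library labelled KO 24 h replicate 4 was the highest and overlapped with the controls. The log2 fold change at 24 h was -0.82 ± 0.119 (adjusted p = 3.85e-05) in WT and -0.53 ± 0.119 (adjusted p = 0.00919) in KO, or -0.69 ± 0.109 (adjusted p = 0.000629) without that library, and the KO call went to an adjusted p of 0.0533 without KO 24 h replicate 2. Between untreated genotypes Plxnd1 was lower in KO by a log2 fold change of -0.89 ± 0.120 (adjusted p = 2.11e-05).

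Plxna4, a plexin that pairs with neuropilins for class 3 semaphorins, was the only plexin that rose. Its WT values were 233, 222, 219.8 and 209 CPM in controls, 227, 214, 212 and 231 CPM at 30 min and 437, 475, 556 and 369 CPM at 24 h. Its KO values were 372, 325, 286 and 221 CPM, 347, 309.5, 327 and 328 CPM and 520.5, 564, 469.9 and 406 CPM. The WT controls were tight and the KO controls spread upward from them, and no 24 h library overlapped with its controls. The rise was 1.06 ± 0.130 (adjusted p = 5.9e-06) in WT and 0.70 ± 0.130 (adjusted p = 0.00226) in KO on the log2 scale. It was 0.78 ± 0.135 (adjusted p = 0.00117) in KO without the library labelled KO 24 h replicate 4. The other plexins that passed all fell in WT: Plxnc1 (receptor of Sema7a), Plxnd1, Plxnb1 (receptor of Sema4d), Plxna3 and Plxna1, with log2 fold changes from -0.88 to -0.55, and Plxnb1 also fell in KO, at -0.45 ± 0.0927 (adjusted p = 0.00489) and -0.51 ± 0.0986 (adjusted p = 0.00338) without that library.

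Plxnc1 differed between cultures, at 82.9, 68.7, 60.4 and 143 CPM in WT controls, 108, 68.7, 62.3 and 134 CPM at 30 min and 51.9, 39.4, 36.9 and 65.1 CPM at 24 h. KO libraries had 49.5, 66.6, 63.97 and 75.4 CPM, 62.3, 70.6, 54.4 and 39.5 CPM and 34.7, 33.96, 35.9 and 38.4 CPM. WT replicate 4 was the highest of each WT group, and its 24 h value overlapped with the control of replicate 3, yet each WT culture fell. The log2 fold change in WT was -0.88 ± 0.255 (adjusted p = 0.0176), and the call was lost, with an adjusted p of up to 0.133, without WT control replicate 4, WT 24 h replicate 2 or WT 24 h replicate 3. In KO it was -0.84 ± 0.256 (adjusted p = 0.0562), and -0.83 ± 0.139 (adjusted p = 0.000446) with the culture as a block. Without the library labelled KO 24 h replicate 4 these were -0.87 ± 0.286 (adjusted p = 0.0785) and -0.90 ± 0.154 (adjusted p = 0.000326).

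Efna5, a membrane-anchored ephrin known for repelling axons in topographic maps, was the only ephrin that rose. Libraries of WT held 11.9, 16.03, 14.02 and 13.01 CPM in controls, 11.4, 14.02, 14.4 and 14.8 CPM at 30 min and 21.4, 26.4, 29.7 and 21.8 CPM at 24 h. Libraries of KO held 17.1, 15.7, 22.4 and 13.96 CPM, 17.7, 16.9, 23.8 and 23.3 CPM and 34.7, 33.8, 36.7 and 26.8 CPM. The 24 h values lay above the controls of their genotype in all 8 libraries. The rise was 0.85 ± 0.157 (adjusted p = 0.000472) in WT and 0.93 ± 0.157 (adjusted p = 0.00101) in KO. In KO it was 1.02 ± 0.160 (adjusted p = 0.000560) without the library labelled KO 24 h replicate 4. In contrast Efna2, Efnb3 and Efna3 fell in WT, by log2 fold changes of -0.51, -0.50 and -0.47, and in KO their fitted changes of -0.33, -0.39 and -0.36 did not pass. With the culture as a block Efnb3 and Efna3 fell in KO, at -0.39 ± 0.0719 (adjusted p = 0.00100) and -0.36 ± 0.0781 (adjusted p = 0.00321). Each was lower at 24 h in all 4 KO cultures. Efna2 was at -0.36 ± 0.151 (adjusted p = 0.112). Without that library the fit with no block gave Efna2 at -0.50 ± 0.146 (adjusted p = 0.0453), Efnb3 at -0.43 ± 0.128 (adjusted p = 0.0509) and Efna3 at -0.43 ± 0.140 (adjusted p = 0.0776). The blocked fit then called all 3 lower.

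Unc5b, a receptor through which netrin repels, rose from 15.9, 16.97, 16.3 and 17.6 CPM in WT controls to 23.3, 29.1, 29.1 and 33.9 CPM at 24 h, with 13.5, 15.7, 15.9 and 15.8 CPM at 30 min. In KO it stood at 12.2, 6.28, 13.3 and 6.93 CPM in controls, 11.2, 7.17, 10.7 and 11.2 CPM at 30 min and 28.9, 22.3, 30.1 and 16.97 CPM at 24 h. Controls and 24 h libraries were separate in both genotypes, and KO cultures started lower. Log2 fold changes were 0.79 ± 0.208 (adjusted p = 0.00928) in WT and 1.34 ± 0.212 (adjusted p = 0.000683) in KO, and the test of the difference between these responses did not pass (0.56 ± 0.294, adjusted p = 0.941). Without the library labelled KO 24 h replicate 4 the KO rise was 1.49 ± 0.208 (adjusted p = 0.000223) and the difference between the responses 0.71 ± 0.283 (adjusted p = 0.645). With the culture as a block that difference was 0.60 ± 0.192 (adjusted p = 0.142) with this library and 0.72 ± 0.176 (adjusted p = 0.0279) without it. Unc5a, which had the highest mean level per length of the netrin receptors in untreated WT neurons, fell in WT (-0.56 ± 0.171, adjusted p = 0.0242). That call was lost in 5 of the 24 fits without a single library. Dcc, which also binds netrin, did not pass in the fit without a block (0.38 ± 0.233 in WT and 0.43 ± 0.232 in KO), but was called with the culture as a block at 0.39 ± 0.0878 (adjusted p = 0.00190) and 0.45 ± 0.0877 (adjusted p = 0.00164). The KO values of Dcc without that library were 0.57 ± 0.240 (adjusted p = 0.188) and, with the block, 0.38 ± 0.0885 (adjusted p = 0.00438).

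Robo1, the Slit receptor that rose, held 125, 137, 131 and 116 CPM in WT controls, 128, 134, 127 and 139 CPM at 30 min and 221, 217, 231 and 190.0 CPM at 24 h. It held 86.9, 100.5, 76.6 and 65.1 CPM in KO controls, 82.9, 98.99, 84.3 and 80.3 CPM at 30 min and 111, 135, 106 and 156 CPM at 24 h. All 24 h libraries were above the controls of their genotype, and the KO libraries at 24 h spanned the range of untreated WT neurons. The rise was 0.75 ± 0.121 (adjusted p = 0.000126) in WT and 0.62 ± 0.121 (adjusted p = 0.00353) in KO, and Robo1 was lower in KO than in WT in each condition, at -0.63, -0.61 and -0.76 (adjusted p = 0.000664, 0.000689 and 0.000412). With the library labelled KO 24 h replicate 4 left out, the KO rise was 0.51 ± 0.121 (adjusted p = 0.0131) and the 24 h difference -0.88 ± 0.124 (adjusted p = 3.6e-05). Slit2, a ligand of Robo1, rose in WT (0.76 ± 0.193, adjusted p = 0.00696) and in KO was at 0.49 ± 0.192 (adjusted p = 0.156), or 0.51 ± 0.0928 (adjusted p = 0.000929) with the block. These KO values were 0.59 ± 0.203 (adjusted p = 0.0957) and 0.49 ± 0.0988 (adjusted p = 0.00137) without that library. Robo3, a divergent Robo that does not bind Slits with high affinity, had the most negative fitted change of all members in WT, -1.94 ± 0.530 (adjusted p = 0.0115), at 0.511, 0.396, 0.783 and 0.988 CPM in controls and 0.133, 0.230, 0.150 and 0.176 CPM at 24 h.

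Ephb3, a receptor of the transmembrane ephrins, rose in WT while Ephb1 and Ephb2 of the same class fell. Its WT libraries held 6.71, 7.87, 8.97 and 6.07 CPM in controls, 6.06, 6.23, 8.14 and 6.24 CPM at 30 min and 13.2, 17.8, 19.5 and 11.7 CPM at 24 h. The KO libraries held 15.6, 15.7, 13.2 and 10.54 CPM, 16.4, 14.9, 14.1 and 15.2 CPM and 23.1, 19.97, 17.8 and 14.5 CPM. Untreated KO neurons were above all untreated WT neurons, near the range that WT reached after 24 h, and KO controls and 24 h libraries overlapped. The 24 h change was 1.07 ± 0.178 (adjusted p = 0.000172) in WT and 0.45 ± 0.175 (adjusted p = 0.147) in KO, the latter 0.45 ± 0.109 (adjusted p = 0.00788) with the culture as a block. Untreated KO exceeded untreated WT by 0.90 ± 0.178 (adjusted p = 0.000840). In the fit without the library labelled KO 24 h replicate 4 the KO change was 0.56 ± 0.181 (adjusted p = 0.0732), and 0.50 ± 0.115 (adjusted p = 0.00385) with the block.

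Ephb1, an ephrin-B receptor involved in axon crossing and in synapses, moved the other way in both comparisons. It read 50.2, 50.3, 52.96 and 38.6 CPM in WT controls, 50.9, 44.7, 42.6 and 36.96 CPM at 30 min and 22.6, 22.9, 18.4 and 18.97 CPM at 24 h. In KO the values were 13.7, 19.5, 16.2 and 18.2 CPM, 13.4, 16.04, 16.3 and 13.4 CPM and 7.86, 10.3, 9.17 and 14.7 CPM. All 12 KO libraries were lower than all WT libraries at control or 30 min. At 24 h the change was -1.21 ± 0.161 (adjusted p = 1.34e-05) in WT and -0.68 ± 0.162 (adjusted p = 0.0139) in KO, and -0.89 ± 0.149 (adjusted p = 0.000933) without the library labelled KO 24 h replicate 4, the highest of its group. The KO call was lost, with an adjusted p of up to 0.0657, without KO control replicate 2, KO 24 h replicate 1 or KO 24 h replicate 3. Ephb2 fell, at -0.61 in WT and -0.38 in KO (adjusted p = 0.000337 and 0.0421), the KO call being lost in 18 of 24 fits without a single library and reading -0.35 ± 0.122 (adjusted p = 0.0968) without the library labelled KO 24 h replicate 4. Of the A-class receptors, Epha10 fell in both genotypes (-0.76 ± 0.101, adjusted p = 1.34e-05 in WT, -0.47 ± 0.101, adjusted p = 0.00680 in KO, and -0.49 ± 0.113, adjusted p = 0.0111 in KO without that library), and Epha4 and Epha7 fell in WT (-0.66 and -0.39).

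Among the semaphorins that fell in WT, Sema5b, a transmembrane semaphorin, had the most negative fold change. Its WT values were 15.2, 10.3, 4.24 and 14.99 CPM in controls, 15.7, 11.7, 3.46 and 13.7 CPM at 30 min and 3.88, 2.30, 1.35 and 5.56 CPM at 24 h, and each culture fell although WT replicate 3 started near the others' treated level. KO values were 2.10, 3.81, 3.16 and 8.18 CPM, 2.13, 3.47, 2.68 and 5.602 CPM and 1.91, 2.86, 2.19 and 3.06 CPM. The change was -1.77 ± 0.485 (adjusted p = 0.0116) in WT and -0.76 ± 0.486 (adjusted p = 0.436) in KO, the latter -0.64 ± 0.191 (adjusted p = 0.0268) with the block. When the library labelled KO 24 h replicate 4 was left out, the KO change was -0.86 ± 0.539 (adjusted p = 0.420), and with the block -0.42 ± 0.185 (adjusted p = 0.130). The blocked KO call was thus lost. Sema4a, a transmembrane semaphorin also known from immune cells, read 34.97, 27.7, 23.4 and 36.04 CPM in WT controls, 38.9, 26.99, 20.5 and 32 CPM at 30 min and 17.9, 12.8, 9.49 and 15.9 CPM at 24 h. It read 8.70, 6.28, 7.03 and 10.4 CPM, 7.93, 6.02, 8.35 and 6.51 CPM and 6.45, 4.97, 5.52 and 11.2 CPM in KO, where every library at control was below every WT library at 24 h except that KO control replicate 4 overlapped with WT 24 h replicate 3. The WT fall was -1.12 ± 0.245 (adjusted p = 0.00214), and the KO change was -0.19 ± 0.248 (adjusted p = 0.747). The library labelled KO 24 h replicate 4 was the highest of its group, and without it the KO change was -0.51 ± 0.233 (adjusted p = 0.235), or -0.45 ± 0.125 (adjusted p = 0.0138) with the block.

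Sema3f, the secreted semaphorin that signals through Nrp2, held 17.98, 19.5, 25.4 and 17.8 CPM in WT controls, 15.7, 19.9, 19.03 and 17.1 CPM at 30 min and 9.19, 12.6, 11.4 and 8.52 CPM at 24 h. KO libraries held 3.77, 4.73, 5.03 and 4.72 CPM, 3.25, 5.42, 4.53 and 4.16 CPM and 2.26, 2.40, 3.10 and 8.01 CPM, all below every WT library. The library labelled KO 24 h replicate 4 was the highest of the KO libraries. At 24 h the WT change was -0.95 ± 0.275 (adjusted p = 0.0167), which went to an adjusted p of up to 0.0619 without WT control replicate 3 or WT 24 h replicate 4. In KO it was -0.20 ± 0.283 (adjusted p = 0.776) with that library and -0.82 ± 0.193 (adjusted p = 0.0124) without it, and the KO call changed with this library. Sema6c, a transmembrane semaphorin, held 8.45, 7.85, 9.63 and 10.8 CPM in WT controls, 7.75, 8.86, 8.79 and 11.3 CPM at 30 min and 3.75, 4.72, 4.61 and 6.65 CPM at 24 h. In KO it held 6.79, 7.98, 7.07 and 10.6 CPM, 7.91, 8.02, 10.97 and 7.23 CPM and 4.48, 4.65, 6.18 and 5.68 CPM. It fell, at -0.89 in WT (adjusted p = 0.00177), and in KO, at -0.63 ± 0.190 (adjusted p = 0.0544), it passed with the block (-0.63 ± 0.147, adjusted p = 0.00577). Without that library it was at -0.66 ± 0.209 (adjusted p = 0.0639), or -0.64 ± 0.166 (adjusted p = 0.00958) with the block. Sema4g fell in both genotypes (-0.72 ± 0.0956, adjusted p = 1.36e-05 in WT and -0.37 ± 0.0953, adjusted p = 0.0231 in KO), and Sema4f fell in WT (-0.40 ± 0.119, adjusted p = 0.0216). The KO call of Sema4g was lost without KO control replicate 1, KO control replicate 4, KO 24 h replicate 2 or the library labelled KO 24 h replicate 4, where it read -0.33 ± 0.104 (adjusted p = 0.0630) without the last.

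Ntng2, a netrin-G that binds the synaptic protein NGL-2, fell in both genotypes. It held 63.8, 62.4, 65.9 and 49.6 CPM in WT controls, 44.9, 64.8, 48.1 and 45.4 CPM at 30 min and 32.3, 42.8, 29.9 and 32.5 CPM at 24 h. It held 95.8, 77.3, 77.2 and 62.4 CPM in KO controls, 85.3, 72.6, 75.05 and 69.1 CPM at 30 min and 49.6, 46.2, 48.2 and 53 CPM at 24 h. The 24 h libraries were below the controls of their genotype, at -0.81 ± 0.137 (adjusted p = 0.000199) in WT and -0.67 ± 0.137 (adjusted p = 0.00491) in KO. The KO value was -0.70 ± 0.153 (adjusted p = 0.00698) without the library labelled KO 24 h replicate 4. The count of Ntng2 is uncertain, because 558 of its exon bases are shared with another gene on the same strand that has 40.1% as many counts as Ntng2. Ntn4, a secreted netrin, fell in WT (-0.77 ± 0.250, adjusted p = 0.0341) and was at -0.73 ± 0.247 (adjusted p = 0.0865) in KO, or -0.74 ± 0.200 (adjusted p = 0.0151) with the block. These KO values were -0.79 ± 0.275 (adjusted p = 0.0976) and -0.91 ± 0.215 (adjusted p = 0.00485) without that library.

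**Figure D3:**
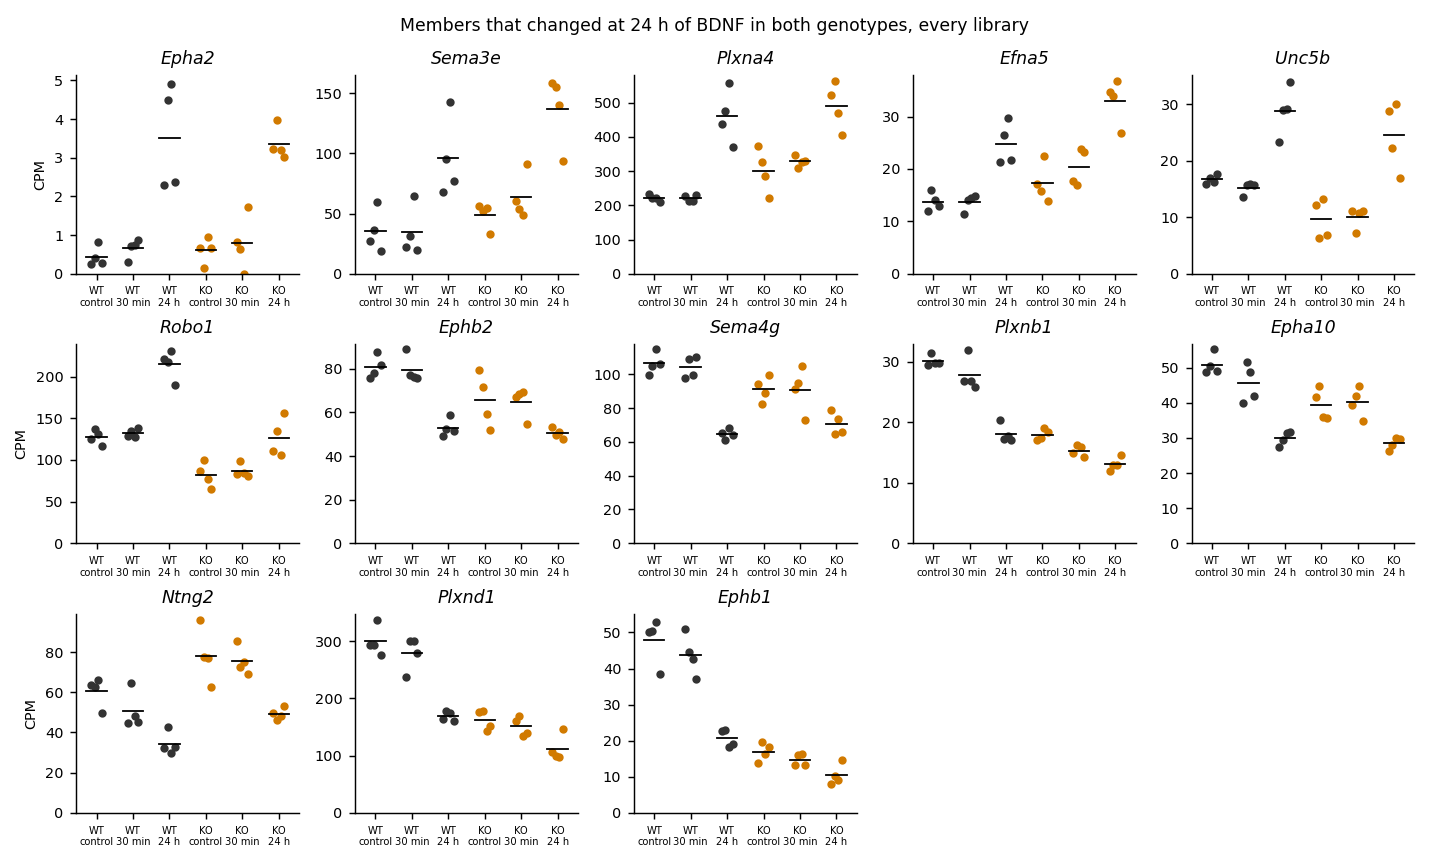
CPM in every library of the 13 members that passed at 24 h of BDNF in both genotypes, each panel with its own linear axis from 0; black points are WT, orange points are KO, and horizontal bars are group means of 4 libraries. 6 members rose (Epha2, Sema3e, Plxna4, Efna5, Unc5b and Robo1) and 7 fell (Ephb2, Sema4g, Plxnb1, Epha10, Ntng2, Plxnd1 and Ephb1), while the 30 min groups sit near their controls.

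The 24 h responses of WT and KO cultures, which share no library, were then compared. The 13 members called in both genotypes were 41.9% of the WT calls and 81.2% of the KO calls, and all 13 had the same direction. Of all genes tested, 3133 were called in WT and 942 in KO, and 804 in both with the same direction. Without the library labelled KO 24 h replicate 4, Ephb2 and Sema4g were not called in KO. All 31 members called in WT had the same sign in KO, beside 3023 of 3133 genes (96.5%) called in WT over the whole table. The fitted change was smaller in KO for 28 of the 31, beside 92.6% of all genes called in WT, and these genes were picked by their WT change. Both counts include the library labelled KO 24 h replicate 4. Without it Plxna1 had the other sign in KO, at 0.03 ± 0.164 (adjusted p = 0.952). The fitted fall of Ntn4 was then larger in KO than in WT (difference -0.02 ± 0.372). No member passed the test of the difference between the responses, in which 6 of all genes (0.0358%) did by edgeR at 24 h and 8 (0.0477%) at 30 min. At an unadjusted p under 0.05 there were 9 members at 24 h and 0 at 30 min. The share of all genes under that unadjusted threshold is not given here, so these counts cannot be set against one. DESeq2 called 0 members at each time, beside 0.334% of all genes at 24 h and 0.137% at 30 min. With the culture as a block 4 members passed, all with a less negative change in KO, beside 1.78% of all genes (0.793% higher). They were Sema4a at 0.91 ± 0.199 (adjusted p = 0.0232), Sema5b at 1.15 ± 0.266 (adjusted p = 0.0313), Plxna1 at 0.51 ± 0.102 (adjusted p = 0.0155) and Plxna3 at 0.47 ± 0.0993 (adjusted p = 0.0189). With the library labelled KO 24 h replicate 4 left out, 8 passed with the block, 6 less negative or more positive in KO and 2 the other way, beside 2.86% of all genes: these 4, Unc5b and Efnb1, and Nrp1 and Ntn1. Each of the first 4 had a lower level in untreated KO than in untreated WT neurons, and the difference in response shares its control libraries with the genotype comparison below.

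Ntng1, Nrp1 and Sema5a passed at 24 h in KO and not in WT. Ntng1, a netrin-G that binds NGL-1, held 5.54, 7.31, 7.98 and 5.87 CPM in KO controls, 5.39, 8.24, 5.25 and 7.27 CPM at 30 min and 8.61, 8.01, 12.5 and 17.9 CPM at 24 h. Its WT libraries held 16.54, 21.4, 16.3 and 18.8 CPM, 15.7, 18.3, 16.1 and 17.9 CPM and 14.2, 23.6, 18.02 and 17.3 CPM. The KO change of 0.82 ± 0.215 (adjusted p = 0.0270) became 0.54 ± 0.195 (adjusted p = 0.114) without the library labelled KO 24 h replicate 4, and the call was also lost without KO control replicate 1, KO control replicate 4 or KO 24 h replicate 3. Nrp1, the neuropilin that binds Sema3a, held 129, 109.5, 121 and 87.5 CPM in KO controls, 134, 126, 131 and 76.8 CPM at 30 min and 77.2, 67.3, 79.7 and 66.5 CPM at 24 h. WT libraries had 63.5, 65.5, 78.5 and 63.7 CPM, 70.4, 60.5, 84.4 and 63.4 CPM and 54.1, 63.1, 71.5 and 49.1 CPM. The KO fall of -0.62 ± 0.157 (adjusted p = 0.0199) brought Nrp1 to the range of the WT libraries, and it was -0.58 ± 0.175 (adjusted p = 0.0520) without that library. Sema5a, a transmembrane semaphorin, held 28.5, 32.8, 28.9 and 18.4 CPM, 29.5, 30.2, 20.9 and 30.1 CPM and 44.6, 42.2, 40.6 and 50.6 CPM in the KO groups and 46.5, 46.03, 36.7 and 55.05 CPM, 56.7, 43.5, 31.5 and 56.2 CPM and 74.4, 59.7, 37.2 and 73.6 CPM in the WT groups. Its KO change was 0.71 ± 0.209 (adjusted p = 0.0473), and the call was lost in 18 of 24 fits without a single library, also without the library labelled KO 24 h replicate 4 (0.64 ± 0.226, adjusted p = 0.102). With the block Sema5a also passed in WT (0.37 ± 0.136, adjusted p = 0.0430). The difference in response did not pass for Ntng1 (0.81 ± 0.300, adjusted p = 0.657), Nrp1 (-0.44 ± 0.221, adjusted p = 0.924) or Sema5a (0.30 ± 0.294, adjusted p = 1). Without that library these differences were 0.54 ± 0.264 (adjusted p = 0.764), -0.39 ± 0.236 (adjusted p = 0.857) and 0.24 ± 0.309 (adjusted p = 0.933), and that of Nrp1 passed with the block (-0.52 ± 0.107, adjusted p = 0.0110).

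**Figure D4:**
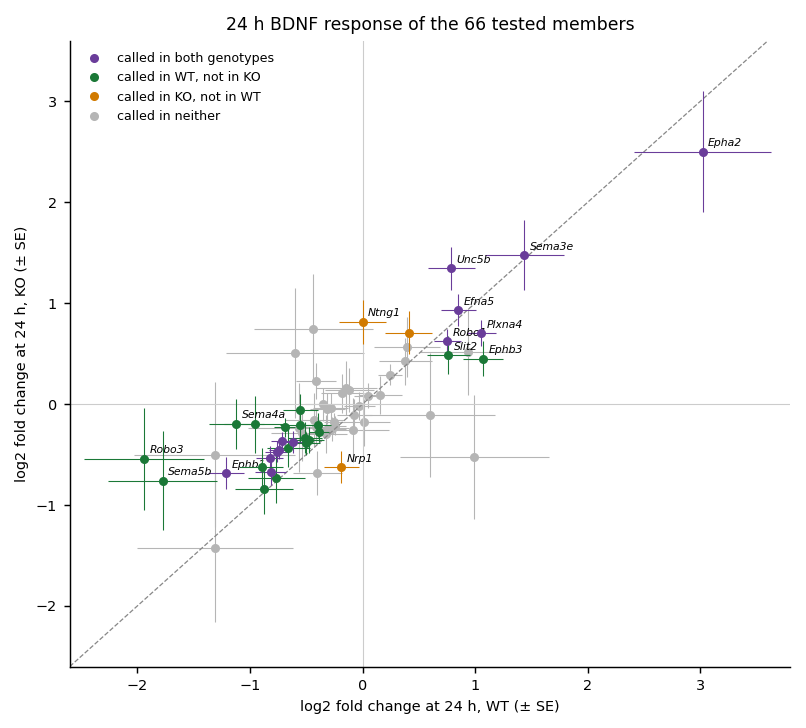
Log2 fold change at 24 h of BDNF in WT (x axis) and KO (y axis) for the 66 tested members, with bars of ± SE and a dashed line of equal change; colour shows in which genotype a member passed. In this fit, with the library labelled KO 24 h replicate 4, all 31 members that passed in WT have the same sign in KO. Of them 28 have the smaller change there.

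Between untreated genotypes, most of the members that differed were lower in KO neurons. Of 66 members 31 passed, 6 higher and 25 lower in KO, which is 47.0% beside 21.4% of all genes tested (11.3% higher and 10.1% lower). The members' median log2 fold change was -0.30, beside 0.03 over all genes. After 30 min of BDNF 36 members passed, 8 higher and 28 lower (54.5% beside 28.4%, of which 14.6% higher and 13.8% lower), and after 24 h 15 passed, 2 higher and 13 lower (22.7% beside 13.3%, of which 7.09% higher and 6.16% lower), or 21 without the library labelled KO 24 h replicate 4 and 9 without KO 24 h replicate 1. Without replicate 4, where 18.4% of all genes passed, no 24 h call was lost, and Epha4, Sema3c and Efna5 (higher) and Efna4, Epha7 and Epha5 (lower) were added. In fits without any 1 library in turn, 22 of the 31 control calls, 27 of the 36 calls at 30 min and 9 of the 15 at 24 h held every time. The others were Epha5, Epha7, Ephb2, Plxna4, Sema3c, Sema5b, Slit2, Unc5a and Unc5c in controls, Efna3, Epha5, Ephb2, Ephb4, Plxnc1, Sema3c, Sema3d, Unc5a and Unc5b at 30 min, and Efnb3, Nrp2, Ntn1, Ntng1, Ntng2 and Plxnb2 at 24 h, with adjusted p of up to 0.172, 0.166 and 0.188. A further fit left out 4 KO libraries together (replicate 4 of each KO group and KO 30 min replicate 3). It lost the control call of Ephb2. At 30 min it lost Epha5, Epha7, Ephb2, Ephb4, Efna5, Plxnc1, Sema3c and Sema3d, and it lost no 24 h genotype call. In untreated cultures 1 of 19 semaphorins was higher and 7 lower, 1 of 8 plexins higher and 5 lower, 0 of 8 ephrins higher and 3 lower, and 1 of 14 Eph receptors higher and 5 lower. Each neuropilin passed, in opposite directions. This comparison and the 24 h response of WT share the WT control libraries, and their values are therefore only set side by side. If each code is 1 culture, the genotype comparisons in controls, at 30 min and at 24 h use the same 4 cultures per genotype. They are then not independent of each other.

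Cell type markers moved with genotype. In untreated KO cultures 4 of 6 GABAergic genes were higher (Slc32a1, Lhx6, Gad2 and Gad1), with a summed level of 1680 to 2280 CPM against 673 to 1570 CPM in WT. Of 6 glutamatergic genes 4 were lower (Tbr1, Neurod6, Slc17a7 and Bcl11b), at 580 to 633 CPM summed against 792 to 1090 CPM, and of 8 astrocyte genes 2 were lower (Aldoc and Slc1a2), at 183 to 322 CPM against 453 to 628 CPM. These ranges do not overlap between the genotypes. Of 6 neuronal genes 2 were lower, Tubb3 at -0.73 ± 0.0803 (adjusted p = 2.53e-06) and Rbfox3 at -0.70 ± 0.159 (adjusted p = 0.0026), with summed levels that overlapped, at 6990 to 7760 CPM in KO and 7600 to 7890 CPM in WT. Of 4 tested microglial genes Csf1r was higher, at 3.08 ± 0.766 (adjusted p = 0.00556) from a mean of 0.131 CPM in WT to 1.09 CPM in KO, and of 7 mural and fibroblast genes Acta2 was higher, at 1.74 ± 0.459 (adjusted p = 0.00862) from 2.32 to 7.73 CPM. At 30 min 6 of 8 astrocyte genes were lower. Their part in the genotype results was not tested.

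Sema3f and Sema4a had the most negative genotype differences among the members that passed, -2.15 ± 0.288 (adjusted p = 2e-05) and -1.92 ± 0.252 (adjusted p = 1.58e-05) in untreated cultures, and their library values above did not overlap. Both stayed lower in KO at 24 h, Sema3f at -1.39 ± 0.282 (adjusted p = 0.00234) and -2.02 ± 0.197 without the library labelled KO 24 h replicate 4, and Sema4a at -0.99 ± 0.247 (adjusted p = 0.00953) and -1.32 ± 0.235 without it. Sema4c, a transmembrane semaphorin that binds Plxnb2, held 32.6, 30.98, 29.98 and 26.8 CPM in WT controls, 38.9, 34.5, 27.6 and 30.8 CPM at 30 min and 30.3, 25.3, 18.3 and 20.3 CPM at 24 h. In KO it held 13.7, 14.9, 13.6 and 11.9 CPM, 15.1, 15.8, 11.8 and 14.01 CPM and 12.6, 13.4, 10.2 and 17.9 CPM. All 12 KO libraries lay below all 12 WT libraries, at -1.15 ± 0.164 (adjusted p = 3.33e-05) in controls, and its receptor Plxnb2 was lower as well (-0.73 ± 0.156, adjusted p = 0.00169). Sema4d, the ligand of Plxnb1, and Plxnb1 itself were also both lower (-0.76 ± 0.193, adjusted p = 0.00648 and -0.75 ± 0.0925, adjusted p = 8.27e-06). Sema5a was lower, at -0.76 ± 0.209 (adjusted p = 0.0118) and Sema5b at -1.40 ± 0.482 (adjusted p = 0.0403), the call of Sema5b being lost in 6 of 24 fits without a single library.

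Sema3c, a secreted semaphorin that can attract cortical axons, was the semaphorin that was higher in KO. WT libraries held 23.3, 18.99, 13.5 and 35.2 CPM in controls, 25.96, 19.1, 15.3 and 35.3 CPM at 30 min and 18.1, 14.8, 12.5 and 40.1 CPM at 24 h. KO libraries held 37.7, 53.5, 54.5 and 40.9 CPM, 42.7, 51.8, 57.5 and 49.4 CPM and 35.1, 45.9, 49.3 and 25.6 CPM. Controls of the genotypes were separate, WT replicate 4 being the nearest to KO. The difference was 1.04 ± 0.322 (adjusted p = 0.0239) in controls, lost in 5 of 24 fits without a single library, and 1.07 ± 0.321 (adjusted p = 0.0151) at 30 min. At 24 h it was 0.86 ± 0.320 (adjusted p = 0.0778), and 1.02 ± 0.331 (adjusted p = 0.0352) without the library labelled KO 24 h replicate 4. Sema3d, another secreted member, passed only at 30 min (-1.60 ± 0.546, adjusted p = 0.0310), at 5.89, 7.68, 2.62 and 4.75 CPM in WT and 1.90, 2.50, 0.412 and 1.90 CPM in KO. Its controls held 6.25, 8.29, 2.21 and 3.29 CPM and 1.70, 2.13, 2.45 and 0.770 CPM and its 24 h libraries 3.24, 7.04, 2.15 and 2.42 CPM and 1.30, 1.93, 2.13 and 6.57 CPM, and the 30 min call was lost without WT 30 min replicate 1, WT 30 min replicate 2 or KO 30 min replicate 3.

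Nrp2, the neuropilin for Sema3f, was lower in KO and Nrp1 was higher. Nrp2 held 174, 172, 88.2 and 197 CPM in WT controls, 177, 173, 80.1 and 206 CPM at 30 min and 132, 104, 61.1 and 139 CPM at 24 h. It held 74.99, 75.5, 67.9 and 68.5 CPM in KO controls, 74.3, 75.1, 66.7 and 51.7 CPM at 30 min and 52.6, 43.1, 52.8 and 86.5 CPM at 24 h. WT replicate 3 was the lowest WT culture in each group and the closest to KO. Nrp2 differed by -1.14 ± 0.276 (adjusted p = 0.00460) in controls and Nrp1 by 0.72 ± 0.157 (adjusted p = 0.00191). At 24 h Nrp2 was lower, at -0.89 ± 0.275 (adjusted p = 0.0339), a call lost in 6 of 24 fits without a single library, and Nrp1 was at 0.29 ± 0.157 (adjusted p = 0.251). In the fit without the library labelled KO 24 h replicate 4 they were at -1.14 ± 0.286 (adjusted p = 0.00673) and 0.32 ± 0.172 (adjusted p = 0.217). Within WT the fitted change of Nrp2 at 24 h was -0.54 ± 0.273 (adjusted p = 0.189), or -0.54 ± 0.149 (adjusted p = 0.00857) with the block.

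Of the ephrins, Efnb1, a transmembrane ephrin encoded on the X chromosome, held 20.8, 19.1, 18.8 and 27.97 CPM in WT controls, 25.4, 22.4, 18.3 and 35.3 CPM at 30 min and 17.02, 15.5, 14.02 and 18.6 CPM at 24 h. KO libraries held 10.9, 9.90, 9.72 and 13.6 CPM, 9.22, 10.7, 15.04 and 11.8 CPM and 12.03, 13.2, 13.3 and 12.9 CPM. KO was below WT in every condition, at -0.98 ± 0.181 (adjusted p = 0.000443) in controls, and the 24 h difference of -0.34 ± 0.179 (adjusted p = 0.232), or -0.35 ± 0.197 (adjusted p = 0.246) without the library labelled KO 24 h replicate 4, did not pass. With the block Efnb1 fell at 24 h in WT (-0.40 ± 0.120, adjusted p = 0.0149). Efna2, a membrane-anchored ephrin, held 9.86, 10.97, 11.2 and 11.1 CPM in WT controls, 10.8, 11.3, 9.48 and 10.8 CPM at 30 min and 6.69, 7.76, 7.61 and 8.21 CPM at 24 h. In KO it held 5.76, 6.09, 7.34 and 5.10 CPM, 5.45, 5.79, 4.58 and 6.87 CPM and 4.48, 4.03, 4.37 and 6.40 CPM, lower in each condition, at -0.83, -0.90 and -0.65 (adjusted p = 0.000428, 0.000137 and 0.00649), the last -0.82 ± 0.147 (adjusted p = 0.000363) without that library. Efnb3, the most abundant member per length, was lower in untreated KO, at -0.46 ± 0.117 (adjusted p = 0.00690).

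Ephb1 was lower in KO in all conditions, at -1.51 in controls, -1.57 at 30 min and -0.98 at 24 h (adjusted p = 2.04e-06, 9.43e-07 and 0.000588), the last -1.19 ± 0.149 (adjusted p = 9.34e-06) without the library labelled KO 24 h replicate 4. The other Eph receptors that were lower in untreated KO differed less, Epha10 at -0.36, Epha7 at -0.33, Ephb2 at -0.30 and Epha5 at -0.27. The Ephb2 call was lost in 18 of 24 fits without a single library, and it was the only called member whose sign was not the same within each set of libraries that share a naming style.

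Netrins and their receptors also differed. Ntng1 was lower in untreated KO, at -1.45 ± 0.217 (adjusted p = 5.62e-05), and had libraries that did not overlap, while at 24 h the difference was -0.63 ± 0.211 (adjusted p = 0.0487), lost in 15 of 24 fits without a single library. It was -0.92 ± 0.197 (adjusted p = 0.00196) without the library labelled KO 24 h replicate 4. Ntng2 was higher in KO at 30 min (0.57 ± 0.137, adjusted p = 0.00315) and at 24 h (0.52 ± 0.137, adjusted p = 0.0138, or 0.48 ± 0.150, adjusted p = 0.0295 without that library). Ntn1, the secreted attractant, passed only at 24 h. It held 3.85, 5.58, 4.41 and 7.62 CPM in WT controls, 4.25, 5.82, 3.46 and 7.31 CPM at 30 min and 8.45, 16.7, 9.91 and 6.19 CPM at 24 h, and 2.69, 3.87, 3.74 and 1.35 CPM, 2.28, 3.18, 3.61 and 1.81 CPM and 2.33, 2.42, 2.24 and 9.82 CPM in KO. The library labelled KO 24 h replicate 4 stood in the WT range, apart from the other 3 of its group. The 24 h difference was -1.28 ± 0.429 (adjusted p = 0.0494), lost in 18 of 24 fits without a single library, and -2.15 ± 0.375 (adjusted p = 0.000304) without the library labelled KO 24 h replicate 4.

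Unc5c, a repulsive netrin receptor, was higher in KO in every condition while Unc5b was lower in controls. Unc5c held 61.6, 69.5, 87.9 and 83.2 CPM in WT controls, 61.5, 64.2, 79.8 and 89.05 CPM at 30 min and 50.03, 54.8, 85.8 and 87.8 CPM at 24 h. In KO it held 126, 149, 139.6 and 104 CPM, 145, 162, 114 and 131 CPM and 162, 179.6, 155 and 75.3 CPM. All KO libraries exceeded all WT libraries except the library labelled KO 24 h replicate 4. The differences were 0.78 ± 0.218 (adjusted p = 0.0128) in controls, 0.91 ± 0.219 (adjusted p = 0.00337) at 30 min and 1.04 ± 0.219 (adjusted p = 0.00318) at 24 h, the last 1.24 ± 0.186 (adjusted p = 6.8e-05) without that library, and the control call went to an adjusted p of 0.0508 without WT control replicate 1. Unc5b was lower, at -0.79 ± 0.211 (adjusted p = 0.00949) in controls and was at -0.23 ± 0.206 (adjusted p = 0.527) at 24 h, or -0.10 ± 0.207 (adjusted p = 0.820) without that library. Plxna4 and Slit2 were higher in untreated KO by 0.45 and 0.56, with overlapping libraries, and these calls were lost in 2 and 16 of 24 fits without a single library, that of Plxna4 without KO control replicate 1 or 2.

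**Figure D5:**
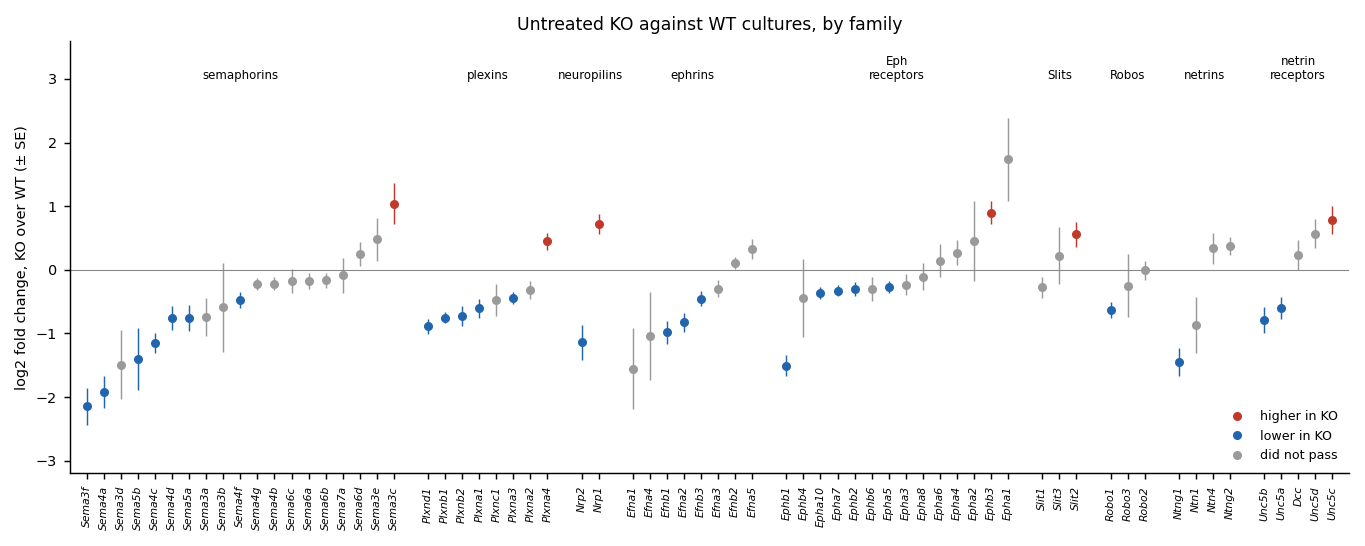
Log2 fold change of untreated KO over untreated WT neurons for each tested member, by family, with bars of ± SE from 4 libraries per group; blue points passed as lower in KO, red points as higher, and grey points did not pass. Of 66 members 25 are blue and 6 are red.

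Members of 1 ligand and receptor pair did not always move in 1 direction. Sema3e rose and Plxnd1 fell at 24 h in both genotypes, Slit2 and Robo1 both rose in WT, and Sema3f and Nrp2 were both lower in untreated KO. No call was made in any of the 9 comparisons for 21 members: Sema3a, Sema3b, Sema4b, Sema6a, Sema6b, Sema6d and Sema7a, Efna1, Efna4 and Efnb2, Epha1, Epha3, Epha6, Epha8 and Ephb6, Plxna2, Robo2, Slit1 and Slit3, Dcc and Unc5d. With the culture as a block 11 of the 21 passed at 24 h in at least 1 genotype: Sema3a, Sema4b, Sema6b, Efnb2, Epha3, Epha6, Epha8, Ephb6, Robo2, Slit3 and Dcc. In that fit 31.6% of all genes passed in WT and 16.9% in KO. These shares are each for 1 genotype and for genes not picked by a missing call, so the count of 11 cannot be compared with them. Sema3a, the secreted semaphorin that repels cortical axons, rose with the block in WT (0.38 ± 0.134, adjusted p = 0.0368) and in KO (0.49 ± 0.137, adjusted p = 0.0190, or 0.41 ± 0.142, adjusted p = 0.0509 without the library labelled KO 24 h replicate 4), and Robo2 fell in WT (-0.31 ± 0.0785, adjusted p = 0.00428). The members without a call include Sema7a, Slit1 and Robo2, the most abundant members of their families per length. A p that misses the threshold does not show that these genes were unchanged.

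Beyond these families, a list of 30 tested co-receptors and further guidance cues and a list of 61 cytoplasmic transducers were followed. No gene of either list passed at 30 min. At 24 h in WT 0 co-receptors rose and 7 fell, which is 23.3% beside 18.7% of all genes, among them Met, the hepatocyte growth factor receptor (log2 fold change -1.05 ± 0.172, adjusted p = 0.000152), the adhesion molecule Chl1 (-0.77 ± 0.123, adjusted p = 0.000121), and Lingo1 (-0.71 ± 0.111) and Rtn4r (-0.54 ± 0.132), parts of the Nogo receptor complex. In KO 1 rose (Rgma, 0.76 ± 0.207, adjusted p = 0.0323) and 1 fell (Chl1, -0.43 ± 0.123, adjusted p = 0.0433), 6.67% of the list beside 5.61% of all genes. When the library labelled KO 24 h replicate 4 was left out, neither passed, Rgma at 0.45 ± 0.175 (adjusted p = 0.141) and Chl1 at -0.39 ± 0.136 (adjusted p = 0.0997). Lingo1 was then lower (-0.42 ± 0.102, adjusted p = 0.0158). Of the transducers 7 rose and 13 fell in WT (32.8% beside 18.7%), and 5 rose and 1 fell in KO (9.84% beside 5.61%), or 4 and 2 without that library. Among those that fell in WT were the collapsin response mediator proteins, which relay semaphorin signals to the cytoskeleton, named here after their values were seen. Dpysl5 fell by 0.54 ± 0.132, Dpysl4 by 0.53 ± 0.142, Dpysl2 by 0.46 ± 0.126, Dpysl3 by 0.46 ± 0.111 and Crmp1 by 0.38 ± 0.121 on the log2 scale, at adjusted p from 0.00489 to 0.0303. The kinase Cdk5 fell in WT (-0.33 ± 0.0679) and in KO (-0.31 ± 0.0678, or -0.29 ± 0.0738 without that library). Mical2, an oxidoreductase that acts on actin, rose by 1.52 ± 0.219 in WT and 0.98 ± 0.217 in KO, the kinase Rock2 by 0.87 ± 0.176 and 0.62 ± 0.175, and the actin regulator Vasp by 0.82 ± 0.147 and 0.83 ± 0.147, all at an adjusted p under 0.05. Their KO values without that library were 1.05 ± 0.233, 0.67 ± 0.189 and 0.91 ± 0.152.

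In untreated KO neurons 2 co-receptors and cues were higher and 17 lower than in WT (63.3% of the list), and 5 transducers were higher and 15 lower (32.8%), beside 21.4% of all genes, 11.3% higher and 10.1% lower. Draxin, a secreted repellent that binds Dcc, was lower, at -2.10 ± 0.391 (adjusted p = 0.000472), the repulsive cue Rgma at -1.86 ± 0.211 (adjusted p = 3.58e-06), the membrane protein Islr2 at -1.57 ± 0.245 (adjusted p = 8.02e-05) and Met at -1.36 ± 0.174 (adjusted p = 1.2e-05). Of the Rnd GTPases, which bind plexins, Rnd1 was lower (-1.34 ± 0.171, adjusted p = 1.19e-05) and Rnd2 was higher (1.14 ± 0.182, adjusted p = 0.000102). The marker shifts given above for the genotypes apply to these lists too.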

How the data were processed

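Polyadenylated RNA of 24 libraries, 4 for each of 6 groups, had been prepared with a stranded mRNA kit, per the labels' protocols. The authors deposited raw read counts per gene, and the submitters' processing notes name STAR 2.7.9a, mm10, DESeq2 1.38.3, edgeR 3.40.2 and limma 3.54.2, while the counting program and its strand setting were not given in the sources used here. Identifiers were matched without version to GENCODE symbols (98.77% matched). edgeR 4.0.16 (R 4.3.3) kept 16777 genes with its group filter, scaled libraries by TMM (factors 0.824 to 1.07) and fitted 1 mean per group over all 24 libraries; tests were two-sided. The biological coefficient of variation was 23.5%, with 18 residual degrees of freedom. This fit takes the 24 libraries as independent, although each code read as a culture recurs in every condition. The KO against WT tests, which had no block, thus rest on 4 cultures per genotype. CPM used the TMM-scaled totals. The fit was also run on simulated counts of independent libraries with no culture effect. That run cannot check errors that come from shared cultures.

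Replicate numbers follow codes in the descriptions (such as WT2C or KO2A), read here as cultures, which the labels do not state. Within each genotype, deviations of libraries with the same number correlated at 0.122 to 0.751 in 24 of 24 pairs over 12906 genes, so the block was fitted as an alternative. The members and gene lists were chosen with earlier results of these data known. Every-library values are given for 26 members: those that passed in any comparison with a mean of at least 1 CPM, at most 12 with the largest change per comparison. The other members are given by counts and values of calls, and Robo3, Dcc and those named beside a ligand or receptor were chosen after their values were seen. Alternatives were the block, DESeq2 1.42.0, other filters, other sample sets, each library left out and, chosen after seeing the data, the block without the library labelled KO 24 h replicate 4. Of the members, 18 share exon bases with another gene, which has at least 10% as many counts for Efna4, Epha1, Ephb4, Ntn5 and Ntng2.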

Additional observations from a re-analysis of the deposited data

Results flagged for a closer look

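In each group of 4 libraries of the 26 members described by library, a library was marked where its gap to the nearest of the others exceeded Dixon's 95% critical value of the group's range. This marked 11 of 156 groups, where chance marks about 1 in 20.

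The library labelled KO 24 h replicate 4 was the highest of its group for 3 secreted ligands: Ntn1 at 9.82 CPM against 2.24 to 2.42 CPM, Sema3d at 6.57 CPM against 1.30 to 2.13 CPM, and Sema3f at 8.01 CPM against 2.26 to 3.10 CPM in the other 3. This is the library with Hist2h2be at 21.2 CPM and with both Xist and Ddx3y, and whether it holds RNA of more than 1 culture was not tested.

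Other KO libraries stood low. Sema3e was 33.0 CPM in KO control replicate 4 against 52.6 to 56.6 CPM, Nrp1 was 76.8 CPM in KO 30 min replicate 4 against 126 to 134 CPM, Sema5a was 20.9 CPM in KO 30 min replicate 3 against 29.5 to 30.2 CPM, and Unc5b was 7.17 CPM in KO 30 min replicate 2 against 10.7 to 11.2 CPM.

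In WT, Ephb3 was 8.14 CPM in 30 min replicate 3 against 6.06 to 6.24 CPM, Nrp1 was 78.5 CPM in control replicate 3 against 63.5 to 65.5 CPM, Ntng2 was 64.8 CPM in 30 min replicate 2 against 44.9 to 48.1 CPM, and Unc5b was 13.5 CPM in 30 min replicate 1 against 15.7 to 15.9 CPM.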

How the results depend on the processing

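Counts of members called kept within 1.5 times of the values in the report except as follows. At 24 h in KO (16 members, beside 5.61% of all genes) the count was 35 with the replicate block by culture (16.9%). A fit of its own groups only gave 10, and the share of all genes was then also below 5.61%. The count was 0 with only the libraries whose descriptions use the second naming style, where 0.109% of all genes passed. Restricting to those libraries left 2 WT and 3 KO libraries per condition. It also gave 8 at 24 h in WT (1.37%). For KO against WT it gave 11 in controls (3.45%), 13 at 30 min (5.51%) and 0 at 24 h (0.0634%). Without 4 KO libraries (replicate 4 of each KO group and KO 30 min replicate 3) KO against WT at 24 h gave 28 (31.2%). The difference in response at 24 h then gave 1, Plxna3 (0.638%), against 4 with the replicate block (1.78%). The replicate block without the library labelled KO 24 h replicate 4 was chosen after seeing the data. It gave 49 at 24 h in WT (36.1%), 40 in KO (19.5%) and 8 for the difference in response (2.86%).

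Leaving out each library in turn gave 26 to 33 members at 24 h in WT, 11 to 20 in KO, 25 to 35 for KO against WT in controls, 31 to 37 at 30 min and 9 to 21 at 24 h, the lowest without KO 24 h replicate 1, and 0 in the other 4 comparisons. No member's called value reversed in any alternative run. When a library was left out, 2862 of 3096 single calls kept their side of the threshold. So did 129 of 129 with DESeq2 and 47 of 47 with the block, with or without the library labelled KO 24 h replicate 4. The block and DESeq2 also called more of all genes, 31.6% and 22.2% at 24 h in WT beside 18.7%. Of 129 calls, 117 were kept with no filter, 109 with each comparison's own groups and 124 with the naming style as a covariate. Without the 4 KO libraries 118 were kept, and with the second naming style only 32. For any call, most of the 24 fits left out a library from outside the groups compared. The 3096 and the counts out of 24 fits given above include those fits. No block was fitted between genotypes, whose cultures share only a number. The 4 libraries per group limit what can be called, and members under 1 CPM rest on few reads.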

Other observations

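The genomic span of a member, from first to last annotated base, differed by direction, a description chosen after the values were seen. The 8 members that rose at 24 h in WT had a median span of 254 kb, from 18.6 kb (Ephb3) to 738 kb (Robo1). The 23 that fell had a median of 36.9 kb, from 6.11 to 433 kb, so the ranges overlapped. The 35 that did not pass had a median of 143 kb. In KO the medians were 321 kb for 8 that rose, 49.3 kb for 8 that fell and 51.5 kb for 50 that did not pass. Over all protein-coding genes tested, the medians of those that rose and fell were 33.3 kb and 29.1 kb in WT, and 46.7 kb and 26.2 kb in KO. Between untreated genotypes the 6 members higher in KO had a median of 240.0 kb and the 25 lower had 46.3 kb, whereas over all protein-coding genes those higher in KO had 22.1 kb and those lower 44.3 kb. Members within a family share gene structure, so these counts are not independent, and no test was made.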
